A study of Mus musculus with 12 samples.

Results

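Cytochrome P450 families 1 to 4 were taken here as every gene whose symbol reads Cyp, a digit from 1 to 4, a letter and a number in the annotation of the array's probe sets, counting only probe sets with 1 gene symbol. The rule found 65 members among the 19935 genes measured. Each member was read by 1 probe set, and all 65 symbols matched the same symbol in the RefSeq annotation of GRCm38.p6. Family 1 had 3 members, family 2 had 43, family 3 had 6 and family 4 had 13, in 20 subfamilies of which 11 had a single member. The largest were Cyp2c with 13 members on chromosome 19, Cyp2d with 9 on chromosome 15, Cyp4f with 8, of which all but Cyp4f18 on chromosome 8 lie on chromosome 17, and Cyp2j on chromosome 4 and Cyp3a on chromosome 5 with 6 each. Cyp2d13 is annotated as a transcribed pseudogene. A further 12 probe sets of these families were left out, 7 because they carried several symbols (the Cyp2c67, Cyp2c68, Cyp2c69 and Cyp2c40 genes share 1 of them) and 5 because the symbol had another form, such as Cyp4a12a.

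The mice were males of 8 to 10 weeks, either Villin-Claudin-2 transgenic (TG) or their wild-type (WT) littermates, and the RNA is labelled as coming from colon epithelial cells. The transgene is named for the Villin promoter, which is active in intestinal epithelium, and for claudin-2, a tight junction protein that forms pores for small cations and water. There were 4 groups of 3 arrays: TG mice given dextran sodium sulfate (DSS), WT mice given DSS, TG mice given water and WT mice given water. DSS, a polymer that injures the colonic epithelium and causes colitis, was given in drinking water at 4% (w/v) for 10 days. The labels do not give the strain, nor whether every array stands for a separate mouse, so the p-values below measure the spread between these arrays, which may be technical.

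Cytochrome P450 enzymes are haem proteins, most of them held in the endoplasmic reticulum, that insert an oxygen atom into their substrates. Families 1 to 3 are best known from the liver, where they oxidise drugs, dietary compounds and steroids, and family 4 is best known for hydroxylating the chain ends of fatty acids, leukotrienes and other eicosanoids. In the intestine, absorptive epithelial cells carry a set of their own, among them Cyp2c and Cyp2j enzymes that make epoxides and hydroxylated products of arachidonic acid. Many of the genes arose by tandem duplication, and neighbours in a cluster can be so alike that an array probe set may read more than 1 of them.

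The duplicated Cyp2c genes show how close such neighbours are. Cyp2c65, Cyp2c66, Cyp2c67 and Cyp2c68 are printed because they split into opposite pairs most widely on WT DSS array 3. There Cyp2c65 and Cyp2c66 read 4.44 and 2.95, and Cyp2c67 and Cyp2c68 read -1.66 and -2.58. The split was not general: on WT DSS array 2 all of them read below 0. The sequences below are the bases before the annotated start of Cyp2c65, Cyp2c66, Cyp2c67 and Cyp2c68 from RefSeq (GRCm38.p6), 5′ to 3′ on the strand of the gene, at chr19:39060756-39061005 (plus strand), chr19:39113648-39113897 (plus), chr19:39649080-39649292 (minus) and chr19:39741102-39741351 (minus). The capitals mark CAAAGTCC, a core of elements bound by hepatocyte nuclear factor 4, which keeps many liver and gut genes on.
Cyp2c65: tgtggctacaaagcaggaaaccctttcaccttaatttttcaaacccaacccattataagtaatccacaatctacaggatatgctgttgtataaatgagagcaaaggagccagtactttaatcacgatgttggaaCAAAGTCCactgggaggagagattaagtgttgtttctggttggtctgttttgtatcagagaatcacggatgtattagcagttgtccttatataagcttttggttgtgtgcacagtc
Cyp2c66: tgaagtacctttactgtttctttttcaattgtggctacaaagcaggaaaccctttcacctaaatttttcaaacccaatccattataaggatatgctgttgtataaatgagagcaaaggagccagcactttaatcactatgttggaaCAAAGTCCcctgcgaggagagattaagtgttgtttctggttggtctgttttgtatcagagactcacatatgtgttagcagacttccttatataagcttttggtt
Cyp2c67: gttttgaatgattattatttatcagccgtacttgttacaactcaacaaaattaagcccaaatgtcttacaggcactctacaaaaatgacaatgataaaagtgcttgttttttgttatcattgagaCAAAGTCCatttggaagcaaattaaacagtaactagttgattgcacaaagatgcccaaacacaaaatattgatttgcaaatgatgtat
Cyp2c68: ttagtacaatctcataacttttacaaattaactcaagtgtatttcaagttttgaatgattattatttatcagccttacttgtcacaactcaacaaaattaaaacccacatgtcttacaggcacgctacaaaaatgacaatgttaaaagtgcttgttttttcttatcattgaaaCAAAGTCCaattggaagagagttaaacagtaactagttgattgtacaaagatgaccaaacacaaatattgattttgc
The word stood once in each window, its first base 116 bases from the end of the printed sequence in Cyp2c65, 104 in Cyp2c66, 88 in Cyp2c67 and 77 in Cyp2c68. The RefSeq promoter table holds 250 bases before the start it lists for each gene, and for Cyp2c67 the last 37 of them lie inside the annotated gene and are not printed. Over these 250 bases, Cyp2c65 and Cyp2c66 were identical at 208 of 221 aligned bases (94.1%), Cyp2c67 and Cyp2c68 at 187 of 201 (93.0%), and Cyp2c66 and Cyp2c67 at 66.8%. Searched on both strands, CAAAGTCC was in 8 of the 53 members that have such a 250-base window in the table (15.1%), against 330 of 27025 genes in all (1.22%). The other members with a match were Cyp2c70, Cyp3a11, Cyp3a16 and Cyp4f18. The windows of Cyp3a11 and Cyp3a16 were identical at 83.3% of aligned bases. Duplicated members with similar windows are thus counted more than once, and the shares of members and of all genes are not like for like. TATAA was in 27 of the 53 (50.9%, against 23.5% of all), and GCGTG, the core of the aryl hydrocarbon receptor element, in 11 of the 53 (20.8%, against 28.2%). A match describes the letters only and is not a measured site.

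The values are log2 signals relative to each probe set's median over the 12 arrays, so that 0 is the gene's own middle value. They carry no absolute level: genes cannot be ranked by expression, and whether a gene, or a marker of the labelled cell type, was expressed at all cannot be read from them. Claudin-2 itself, Cldn2, averaged 0.17 ± 0.19 on TG water arrays and 0.03 ± 0.08 on WT water arrays (SD, n = 3 each), with overlapping arrays, and the groups are called TG and WT as labelled. The 3 WT DSS arrays stood apart from the rest and from each other. On WT DSS array 2, 16.2% of all genes lay more than 1 log2 unit from their median, against 3.78% on WT DSS array 3, 2.49% on WT DSS array 1, 1.19% on TG DSS array 1 and at most 0.251% on the other 8 arrays. Array 2 had a median of -2.04 over 14 pan-epithelial markers and 3.41 over 10 neutrophil markers, where the water arrays lay between -0.07 and 0.11 and between -0.22 and 0.18. Array 3 had 0.06 and 0.10 for these lists but -1.41 over 8 posterior Hox genes, which mark the distal gut, with Hoxb13 at -5.36. Array 1 had -0.10, 1.49 and -0.28 for the 3 lists.

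Some P450 genes varied widely on these arrays and others stayed flat. Cyp2c and Cyp2d, the subfamilies with the most members, also held the most wide ones. Across the 12 arrays 18 of the 65 members spanned over 2 log2 units (27.7%, against 10.1% of all genes), while 32 spanned under 0.75 (49.2%, against 59.5%). Of the 18, 5 were among the 13 Cyp2c genes, 4 were among the 9 Cyp2d genes, and Cyp3a and Cyp4f gave 2 each. The other 5 were Cyp2e1, Cyp2f2, Cyp2s1, Cyp2w1 and Cyp4b1. No Cyp1, Cyp2a, Cyp2b, Cyp2j or Cyp4a gene was among them. On WT DSS arrays 1, 2 and 3, 7.69%, 29.2% and 20.0% of the members lay more than 1 log2 unit from their median, and on TG DSS arrays 1, 2 and 3, 6.15%, 0% and 1.54% did.

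**Figure D1:**
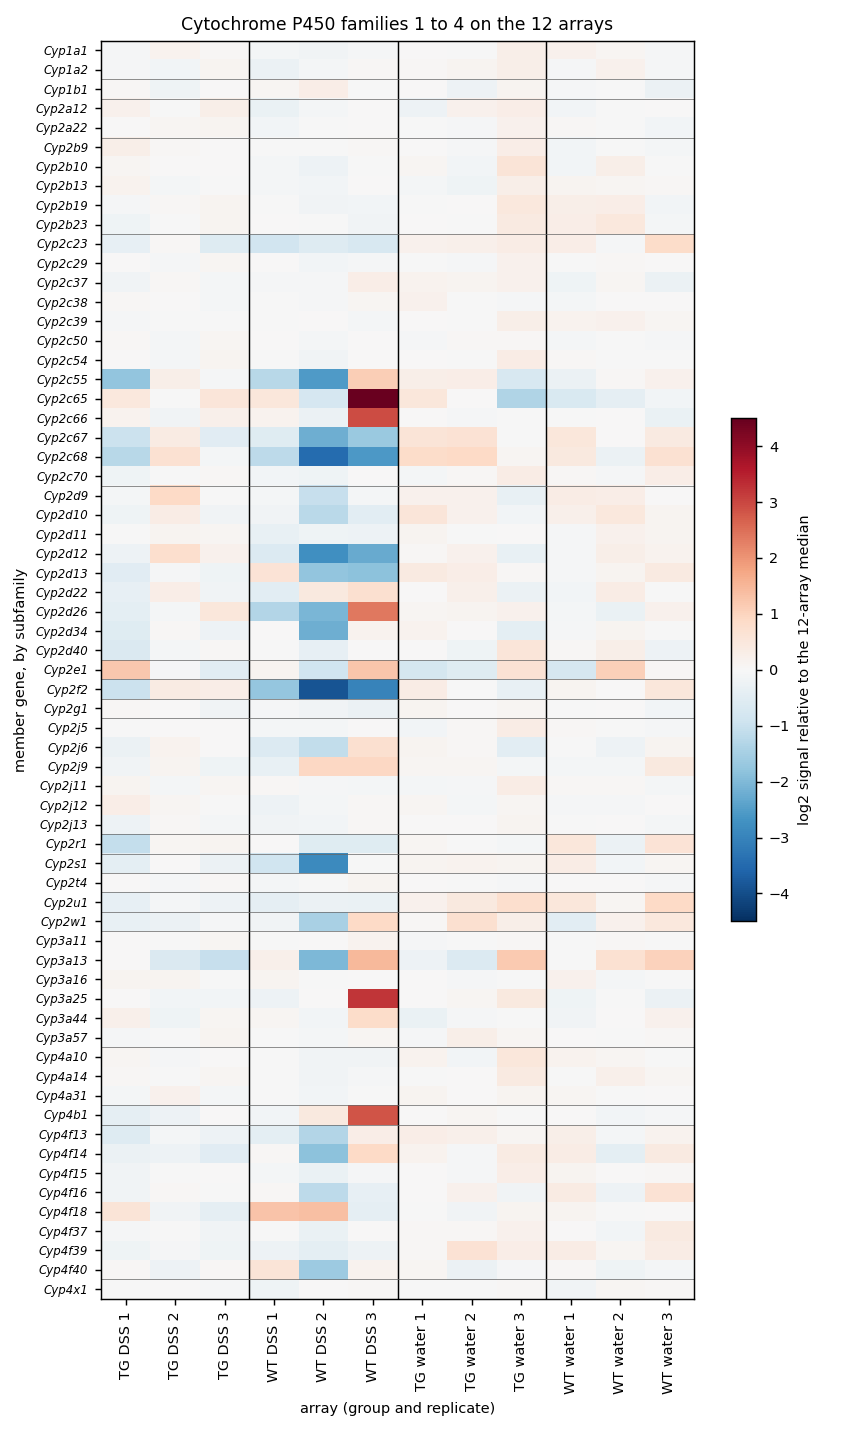
Each row is a member and each column an array. The colour is the log2 signal relative to the member's median over the 12 arrays, red above and blue below, and thin lines separate subfamilies. The strong colours lie on the 3 WT DSS arrays, with blue on array 2 for 18 members below -1 and red on array 3 for 8 members above 1, up to 4.44 for Cyp2c65.

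In WT mice given DSS, most members read lower than in WT mice given water, and the club cell enzyme Cyp2f2, the neighbours Cyp2c68 and Cyp2c67, and Cyp2d12 had the largest negative differences. No member passed limma's test at an adjusted p under 0.05 over all genes, against 34 of 19935 genes (0.171%). At an unadjusted p under 0.05, 11 members were lower and 0 higher (16.9% of members, against 15.2% of all genes, 9.55% lower and 5.7% higher). In 14 members all WT DSS arrays lay below all WT water arrays (21.5%, against 10.7% of genes), and in 2, Cyp1b1 and Cyp2b9, above (3.08%, against 5.45%). At least 2-fold lower means were found in 7 members (10.8%, against 1.83% of genes) and at least 2-fold higher ones in 4 (6.15%, against 2.97%). The median difference was -0.15 over the members and -0.04 over all genes, and 48 of the 65 members were below 0 (73.8%, against 59.4% of genes). Without WT DSS array 2 these medians were -0.045 and -0.0275, so most of the members' shift rested on that array. In tissue samples of this kind, fewer cells of a type and less RNA per cell cannot be told apart.

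Cyp2f2, which activates naphthalene in the club cells of the mouse airway, read -1.75, -3.88 and -2.99 on WT DSS arrays 1, 2 and 3, and 0.11, 0.02 and 0.50 on WT water arrays 1, 2 and 3. All 3 WT DSS arrays lay far below every water array. The difference was -3.09 ± 0.50 (SE; 95% interval -4.20 to -1.97; 8.49-fold lower), with an adjusted p of 0.0548 in limma. It came to -2.58 without WT DSS array 2, -3.03 without array 3 and -3.65 without array 1, and each of these passed (limma adjusted p 0.0431, 0.0344 and 0.00186). Without TG DSS array 1, which enters only the shared estimate of the spread, the value stayed at -3.09 and the adjusted p was 0.0349 in limma. It did not pass in the other 8 single omissions, with a limma adjusted p of 0.192, 0.123 and 0.259 without WT water arrays 1, 2 and 3, nor with the 2 groups alone (0.391) or eBayes with trend and robust (0.251).

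**Figure D2:**
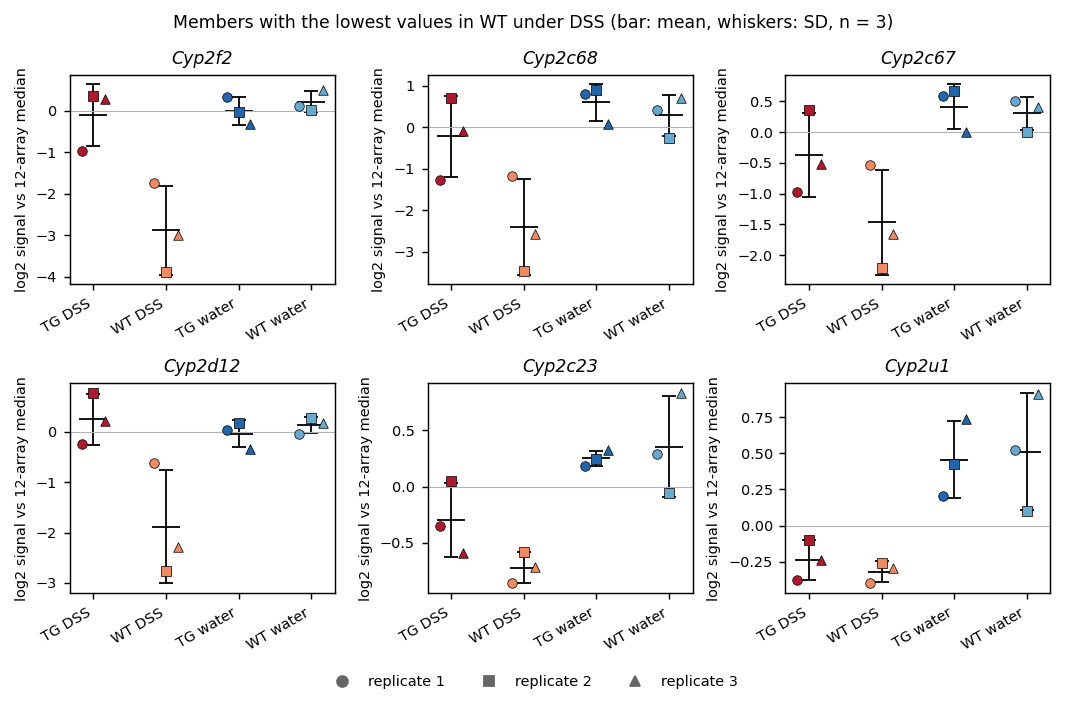
Log2 signal relative to the 12-array median for 6 members in the 4 groups, with a symbol for each array, a bar at the mean and whiskers at the SD (n = 3). In Cyp2f2 and Cyp2d12 the WT DSS arrays lie below all other arrays, while in Cyp2u1 the TG DSS and WT DSS arrays both lie below all water arrays.

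The Cyp2c cluster on chromosome 19 held the widest contrasts between neighbours. Cyp2c68 read -1.16, -3.46 and -2.58 on WT DSS arrays 1, 2 and 3, against 0.42, -0.26 and 0.70 on WT water arrays, a difference of -2.69 ± 0.60 (limma adjusted p 0.0966). Cyp2c67 next to it read -0.54, -2.20 and -1.66, against 0.51, 0.00 and 0.40, a difference of -1.77 ± 0.43 (limma adjusted p 0.113). In both genes the groups did not overlap and array 2 was the lowest. Their probe sets carry separate symbols, but a further probe set annotated to both was left out, so signal shared between the pair cannot be told apart. Without WT DSS array 1 both passed, at -3.30 and -2.23 (limma adjusted p 0.0105 and 0.0111).

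The neighbours Cyp2c65 and Cyp2c66 showed another pattern. Cyp2c65, an intestinal enzyme that acts on arachidonic acid, read 0.51, -0.76 and 4.44 on WT DSS arrays 1, 2 and 3 and -0.69, -0.41 and -0.12 on WT water arrays. Its neighbour Cyp2c66 read 0.17, -0.28 and 2.95, against 0.00, 0.00 and -0.30. Only array 3 of WT DSS stood high, and the groups overlapped in both genes. The differences of 1.80 ± 1.06 and 1.05 ± 0.65 did not pass (limma adjusted p 0.449 and 0.473). Cyp2c55, the Cyp2c enzyme best known from mouse colon, lies first in the order and split the same group: it read -1.25 and -2.54 on WT DSS arrays 1 and 2 but 1.10 on array 3, against -0.28, 0.05 and 0.18 on WT water arrays (-0.88 ± 0.82, limma adjusted p 0.659). On array 3, then, the cluster held its highest and some of its lowest values at the same time.

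Cyp2c23, the main arachidonic acid epoxygenase of the mouse kidney, lies apart from the others on chromosome 19 and had a narrower and more even difference. It read -0.86, -0.58 and -0.72 on WT DSS arrays 1, 2 and 3 and 0.29, -0.05 and 0.83 on WT water arrays. The WT DSS arrays differed little among themselves and lay below all water arrays. The difference was -1.07 ± 0.22 (95% interval -1.55 to -0.59), with an adjusted p of 0.0751 in limma. The remaining 7 Cyp2c genes, Cyp2c29, Cyp2c37, Cyp2c38, Cyp2c39, Cyp2c50, Cyp2c54 and Cyp2c70, spanned under 0.75 over all 12 arrays. Cyp2c70 makes muricholic acids in mouse liver.

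**Figure D3:**
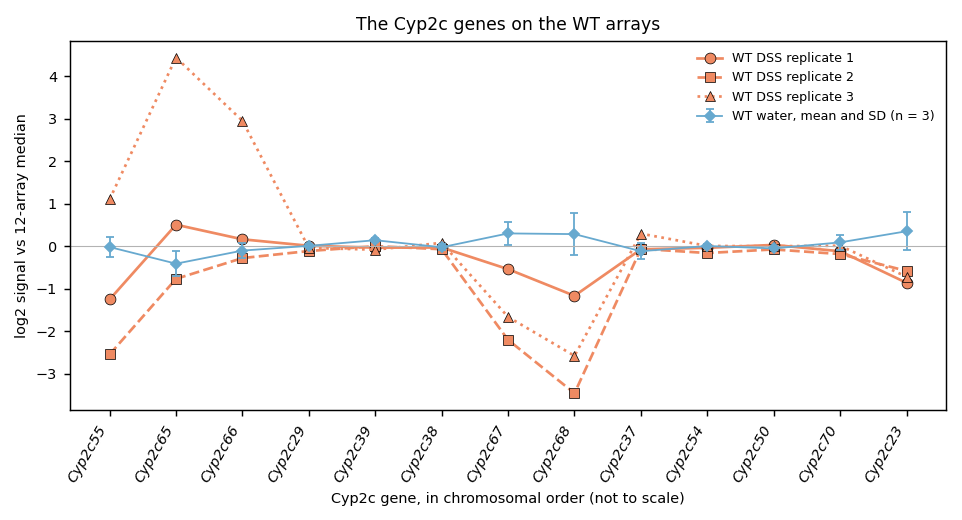
The 13 Cyp2c members in their order along chromosome 19, not to scale, with the log2 signal relative to the 12-array median for the 3 WT DSS arrays and the mean and SD of the 3 WT water arrays. On WT DSS array 3 the line climbs to 4.44 at Cyp2c65 and drops to -2.58 at Cyp2c68, while arrays 1 and 2 dip at Cyp2c55 and again at Cyp2c67 and Cyp2c68.

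The Cyp2d genes, mouse relatives of the human drug enzyme CYP2D6, were lower in 8 of 9 members, with a median difference of -0.62. Cyp2d12 read -0.62, -2.76 and -2.28 on WT DSS arrays 1, 2 and 3, against -0.04, 0.27 and 0.17 on WT water arrays, a difference of -2.02 ± 0.47 (limma adjusted p 0.102). Cyp2d10 read -0.17, -1.22 and -0.46, against 0.22, 0.49 and 0.14, a difference of -0.90 ± 0.27 (limma adjusted p 0.175). Both groups of arrays were separate in each gene, and array 2 was again the lowest. Cyp2d9 read -0.07, -1.02 and -0.09, against 0.34, 0.31 and 0.02 (-0.62 ± 0.31, limma adjusted p 0.38), and Cyp2d11 had a difference of -0.34 ± 0.09 (limma adjusted p 0.138), both without overlap. Not all Cyp2d genes followed: Cyp2d26 read -1.33 and -2.07 on WT DSS arrays 1 and 2 but 2.36 on array 3, and Cyp2d13 read 0.63 on array 1 but -1.77 and -1.86 on arrays 2 and 3. Cyp2d22, the mouse gene closest to human CYP2D6, had a difference of 0.17 ± 0.29. Without WT DSS array 1 Cyp2d12, Cyp2d13 and Cyp2d10 passed, with -2.65, -1.97 and -1.12 (limma adjusted p 0.00132, 0.000603 and 0.0499), and without array 3 Cyp2d26 passed with -1.63 (limma adjusted p 0.0267).

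Among the single-member subfamilies of family 2, Cyp2u1, which hydroxylates long-chain fatty acids, read -0.40, -0.26 and -0.29 on WT DSS arrays 1, 2 and 3, against 0.52, 0.10 and 0.91 on WT water arrays, a difference of -0.83 ± 0.19 (limma adjusted p 0.103). Cyp2s1, an epithelial enzyme inducible through the aryl hydrocarbon receptor, read -0.91, -2.86 and -0.01, against 0.32, -0.13 and 0.10, a difference of -1.36 ± 0.55 (limma adjusted p 0.283). Its WT DSS arrays overlapped with water because array 3 stayed near 0, and without that array it passed at -1.98 (limma adjusted p 0.0474). Cyp2r1, a vitamin D 25-hydroxylase, read 0.01, -0.55 and -0.56, against 0.51, -0.26 and 0.61, a difference of -0.65 ± 0.33. Cyp2w1, known from fetal colon and colon tumours, read -0.17, -1.45 and 0.89, against -0.48, 0.20 and 0.48, with array 3 above and array 2 below all water arrays. The ethanol-metabolising Cyp2e1 varied in every group: it read 0.14, -0.89 and 1.25 on WT DSS arrays and -0.75, 1.07 and 0.07 on WT water arrays, a difference of 0.04 ± 0.67. WT water array 2, where Cyp2e1 was highest in its group, also had the highest adipocyte marker median of the 12 arrays, 0.65. Cyp2e1 was higher still on WT DSS array 3 (1.25) and TG DSS array 1 (1.21), with adipocyte medians of 0.27 and 0.16. The part of such cells in these values was not tested.

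The Cyp2j subfamily of arachidonic acid epoxygenases had a median difference of -0.06 over 6 members. Its intestinal member Cyp2j6 read -0.61, -1.11 and 0.73 on WT DSS arrays 1, 2 and 3 and -0.01, -0.23 and 0.12 on WT water arrays, while Cyp2j9 read -0.34, 0.95 and 0.93, against -0.10, -0.09 and 0.46. The 2 genes thus sat on opposite sides of 0 on array 2. Cyp2j9 passed without WT DSS array 1, at 0.85 (limma adjusted p 0.0288). The Cyp2a and Cyp2b genes, liver enzymes of which Cyp2b10 is the usual target of the constitutive androstane receptor, spanned between 0.328 and 0.813 over all arrays. Of these 7 genes, Cyp2b13 had all WT DSS arrays below all WT water arrays (-0.15 ± 0.12) and Cyp2b9, with 0.00, -0.02 and 0.04 against -0.11, -0.03 and -0.10, had them above (0.09 ± 0.10), while the windows before their starts were identical at 248 of 250 bases. Cyp2g1, an olfactory enzyme, and Cyp2t4 had differences of -0.13 and 0.01.

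In family 1, whose genes are the standard targets of the aryl hydrocarbon receptor, the differences were small. Cyp1a1 read -0.08, -0.17 and -0.04 on WT DSS arrays 1, 2 and 3 and 0.20, 0.09 and -0.05 on WT water arrays, a difference of -0.18 ± 0.11 (limma adjusted p 0.45). Cyp1b1 read 0.10, 0.28 and -0.01, against -0.06, -0.04 and -0.26, a difference of 0.24 ± 0.12 (limma adjusted p 0.379). The Cyp1a1 groups overlapped and the Cyp1b1 groups did not, WT DSS being above. The liver gene Cyp1a2 had a range of 0.524 over the 12 arrays. Outside the P450 genes, none of 5 measured targets of the receptor passed, and they included Ido1, a tryptophan-degrading enzyme, at 1.70 ± 0.66 and Tiparp, a repressor of the receptor, at 0.13 ± 0.12.

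Family 3 was split between flat and variable members. Cyp3a13, the intestinal Cyp3a gene of the mouse, read 0.23, -2.02 and 1.45 on WT DSS arrays 1, 2 and 3 and -0.01, 0.67 and 1.03 on WT water arrays, a difference of -0.68 ± 0.78 (limma adjusted p 0.732). Cyp3a25 read -0.23, 0.03 and 3.21, against -0.19, -0.01 and -0.28, so that only array 3 was high (1.16 ± 0.71, limma adjusted p 0.466). Cyp3a44 also had its highest value of the 12 arrays, 0.82, on array 3. Cyp3a11, the main Cyp3a enzyme of mouse liver and the counterpart of human CYP3A4, stayed within 0.228 over all arrays (0.05 ± 0.07), and Cyp3a16 and Cyp3a57 also varied little. Flat values do not show whether these genes were expressed.

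Family 4 held the enzymes of fatty acid and leukotriene turnover. Cyp4b1, which hydroxylates fatty acids and activates the lung toxin 4-ipomeanol, read -0.12, 0.44 and 2.85 on WT DSS arrays 1, 2 and 3 and 0.01, -0.11 and -0.04 on WT water arrays, a difference of 1.10 ± 0.58 (limma adjusted p 0.395). Arrays 2 and 3 lay above all water arrays and array 1 did not. Of the 8 Cyp4f genes, 7 had differences below 0, with a median of -0.31. Cyp4f39, the counterpart of the human skin enzyme CYP4F22 of acylceramide synthesis, read -0.24, -0.43 and -0.24, against 0.34, 0.08 and 0.34, a difference of -0.56 ± 0.14 with no overlap (limma adjusted p 0.125). Cyp4f14, which inactivates leukotriene B4, read 0.07, -1.83 and 0.89, against 0.35, -0.43 and 0.41, and its groups overlapped. Cyp4f16, Cyp4f13 and Cyp4f40 were likewise below -1 on array 2 alone.

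Cyp4f18, the leukotriene B4 hydroxylase of mouse neutrophils, was the exception in its subfamily. It read 1.29, 1.34 and -0.41 on WT DSS arrays 1, 2 and 3, against 0.13, -0.01 and 0.01 on WT water arrays, a difference of 0.69 ± 0.41 (limma adjusted p 0.456). Arrays 1 and 2 were high and array 3 was below all water arrays. The median of the 10 neutrophil markers on the same arrays was 1.49, 3.41 and 0.10, and its part in the result was not tested. Without array 3 Cyp4f18 passed at 1.27 (limma adjusted p 0.0305). The 3 Cyp4a genes, fatty acid hydroxylases driven by PPARα, had differences between -0.19 and -0.07, and Cyp4x1 one of -0.03.

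The WT DSS result rested on arrays that differ from each other, so each was left out in turn. The number of members past the threshold was 7 without WT DSS array 1 (Cyp2c67, Cyp2c68, Cyp2d10, Cyp2d12, Cyp2d13, Cyp2f2 and Cyp2j9), 1 without array 2 (Cyp2f2) and 4 without array 3 (Cyp2d26, Cyp2f2, Cyp2s1 and Cyp4f18), against 0 with all arrays. Of all genes, 919 (4.61%), 92 (0.461%) and 575 (2.88%) passed in the same omissions, against 34 with all arrays. Cyp2f2 was the only member in all 3. The median difference of the members was -0.045 without array 2, against -0.0275 over all genes. Array 2, on which 18 members were below -1, is the one with the pan-epithelial median of -2.04 and with medians of 2.26 over macrophage and monocyte, 1.94 over fibroblast and 2.99 over endothelial markers. Array 3, on which 8 members were above 1, had -0.08, -0.32 and -0.29 for those lists and an absorptive colonocyte median of -0.03. The part of these cell types and of the gut region in the P450 values was not tested.

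**Figure D4:**
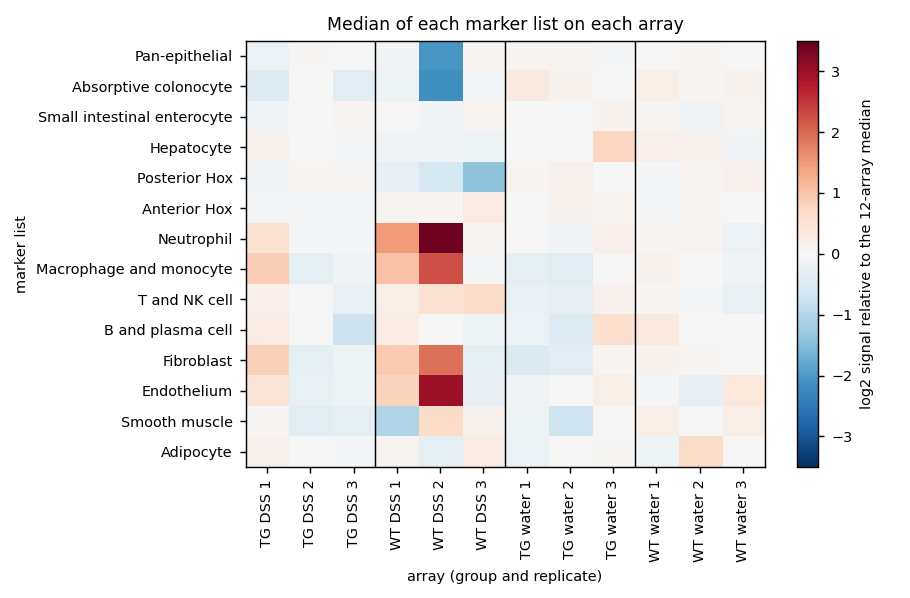
Median log2 signal of each marker list on each array, relative to each gene's 12-array median. WT DSS array 2 is low for the epithelial and colonocyte lists (-2.04 and -2.16) and high for neutrophil (3.41) and endothelial (2.99) markers, while WT DSS array 3 is low for posterior Hox genes (-1.41).

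In mice given water, the differences between TG and WT were small in these genes. No member passed (0 of 19935 genes passed, 0%), and at an unadjusted p under 0.05 limma called 0 members, against 0.306% of all genes. The spread in this fit was shared by all 4 groups, so the discordant WT DSS arrays widened it and few calls could be made. With the 2 water groups alone, 423 genes had an unadjusted p under 0.05 in limma, against 61 in the main fit, and 0 passed. Differences ran from -0.46 to 0.34 with a median of 0.03, against 0.01 over all genes. TG water arrays lay above all WT water arrays in 2 members (3.08%, against 1.93% of genes) and below in 0 (against 3.05%), so 2 members did not overlap in all, against 4.98% of genes. Cyp2c37 read 0.16, 0.12 and 0.21 on TG water arrays 1, 2 and 3, against -0.19, 0.10 and -0.26 on WT water arrays, a difference of 0.28 ± 0.13. Cyp3a25 read 0.01, 0.09 and 0.44, against -0.19, -0.01 and -0.28, a difference of 0.34 ± 0.71. Its SD was 0.22 on TG water arrays and 0.14 on WT water arrays but 1.92 on WT DSS arrays, which enter this SE. In limma the adjusted p was 1 for both. With a weight estimated for each array, 6 members passed (Cyp2b13, Cyp2b19, Cyp2b23, Cyp2c37, Cyp2c39 and Cyp2w1), as did 9.89% of all genes (1971), and these weights ran from 0.313 on TG water array 3 to 7.15 on WT water array 1 among the water arrays. The hepatocyte marker median was 0.74 on TG water array 3 and between -0.15 and 0.16 on the 11 other arrays, and its part in the water values was not tested. The members given throughout had differences of 0.01 ± 0.11 (Cyp1a1), 0.09 ± 0.12 (Cyp1b1), -0.03 ± 0.82 (Cyp2c55), 0.15 ± 1.06 (Cyp2c65), -0.35 ± 0.67 (Cyp2e1), 0.03 ± 0.55 (Cyp2s1), -0.46 ± 0.78 (Cyp3a13), 0.08 ± 0.58 (Cyp4b1) and -0.06 ± 0.41 (Cyp4f18), and all of these groups overlapped.

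In TG mice given DSS, the members again read slightly lower than in TG mice given water. With all arrays the margin was smaller than in WT, but not without WT DSS array 2, where the WT median was -0.045. No member and no gene passed (0%), and the largest differences were those of Cyp2c68 and Cyp2c67. The median difference was -0.10, against -0.01 over all genes, and 47 of the 65 members were below 0 (the all-gene share was 53.8%). That median was -0.035 without TG water array 3 and -0.019 with a weight for each array. TG DSS arrays lay below all TG water arrays in 10 members (15.4%, against 6.64% of genes) and above in 0 (against 6.76%). The 10 were Cyp2c23, Cyp2c37, Cyp2d13, Cyp2s1, Cyp2u1, Cyp2w1, Cyp4f13, Cyp4f14, Cyp4f37 and Cyp4f39. At an unadjusted p under 0.05 limma called 3 members, Cyp2c23, Cyp2u1 and Cyp4f39, all lower (4.62%, against 1.17% of genes lower and 2.38% in either direction).

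Cyp2u1 read -0.38, -0.10 and -0.24 on TG DSS arrays 1, 2 and 3 and 0.21, 0.42 and 0.74 on TG water arrays, a difference of -0.69 ± 0.19. Cyp4f39 read -0.20, -0.06 and -0.21, against 0.06, 0.64 and 0.29, a difference of -0.49 ± 0.14. Cyp2c23 read -0.35, 0.05 and -0.59, against 0.19, 0.24 and 0.32, a difference of -0.55 ± 0.22. The DSS arrays lay below all water arrays in each of the 3 genes, as they did in WT mice, and in limma the adjusted p was 1 for each. Cyp2w1 read -0.35, -0.27 and -0.07, against 0.07, 0.71 and 0.26 (-0.57 ± 0.48), and Cyp4f13 read -0.58, -0.08 and -0.24, against 0.28, 0.22 and 0.08 (-0.50 ± 0.32). Cyp2d13 read -0.51, -0.05 and -0.18, against 0.39, 0.30 and 0.05 (-0.50 ± 0.53). These groups were separate by narrow gaps. Cyp4f14 read -0.25, -0.22 and -0.53, against 0.17, -0.07 and 0.37 (-0.49 ± 0.55), and Cyp2s1 read -0.45, 0.01 and -0.28, against 0.13, 0.15 and 0.11 (-0.37 ± 0.55). Cyp2c37 (-0.22 ± 0.13) and Cyp4f37 (-0.17 ± 0.14) had the smallest differences among the 10.

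Genes that were wide in WT DSS were mostly narrow here. Cyp2f2 read -0.96, 0.36 and 0.29 on TG DSS arrays 1, 2 and 3, against 0.34, -0.02 and -0.33 on TG water arrays (-0.10 ± 0.50), and Cyp2d12 read -0.23, 0.77 and 0.21, against 0.04, 0.18 and -0.34 (0.29 ± 0.47). Cyp2c68 read -1.26, 0.70 and -0.09, against 0.81, 0.90 and 0.09 (-0.82 ± 0.60), and Cyp2c67 -0.98, 0.36 and -0.52, against 0.58, 0.66 and 0.00 (-0.79 ± 0.43). All overlapped, and array 1 was the lowest TG DSS array in each. That array also had Cyp2c55 at -1.78 and Cyp2r1 at -1.07, with Cyp2e1 at 1.21, and medians of 0.52 over neutrophil, 0.84 over fibroblast and -0.45 over absorptive colonocyte markers, whose part was not tested. Cyp2c65 read 0.46, -0.03 and 0.55, against 0.53, 0.03 and -1.34 (0.59 ± 1.06), and Cyp3a13 0.01, -0.65 and -1.03, against -0.25, -0.62 and 1.17 (-0.66 ± 0.78). Cyp1a1, Cyp1b1, Cyp4b1, Cyp4f18 and Cyp2e1 had differences of -0.03 ± 0.11, -0.01 ± 0.12, -0.23 ± 0.58, 0.02 ± 0.41 and 0.43 ± 0.67.

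Under DSS, TG arrays read higher on average than WT arrays in several of the genes that were lowest in WT DSS. This comparison shares its 3 WT DSS arrays with that of DSS and water in WT. It shares its 3 TG DSS arrays with that of DSS and water in TG, so the values are not independent. Choosing genes for low values on the WT DSS arrays favours a higher TG reading beforehand, so that direction is not a separate result. Cyp2u1 and Cyp2c23, also lower in WT DSS, differed by 0.08 ± 0.19 and 0.42 ± 0.22. No member passed, against 8 of 19935 genes (0.0401%), and at an unadjusted p under 0.05 limma called 6 members, all higher (9.23%, against 15.9% of genes, 10.3% higher and 5.63% lower). They were Cyp2c67, Cyp2c68, Cyp2d10, Cyp2d11, Cyp2d12 and Cyp2f2. TG DSS arrays lay above all WT DSS arrays in 5 members, Cyp2b10, Cyp2d11, Cyp2d12, Cyp2f2 and Cyp4f39 (7.69%, against 14.1% of genes), and below in 0 (against 4.9%). The median difference was 0.08 over the members and 0.04 over all genes.

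Cyp2f2, with -0.96, 0.36 and 0.29 on TG DSS arrays against -1.75, -3.88 and -2.99 on WT DSS arrays, differed by 2.77 ± 0.50 (95% interval 1.66 to 3.88; limma adjusted p 0.0855). Cyp2d12 differed by 2.13 ± 0.47 (limma adjusted p 0.118) and Cyp2d11 by 0.31 ± 0.09 (limma adjusted p 0.168). Cyp2b10, with 0.10, 0.03 and 0.02 against -0.10, -0.22 and -0.02, differed by 0.17 ± 0.17, and Cyp4f39 by 0.15 ± 0.14. The arrays were separate in all 5, although TG DSS array 1 was the lowest TG value of Cyp2f2 and Cyp2d12. Cyp2c68 and Cyp2c67 differed by 2.18 ± 0.60 and 1.09 ± 0.43, with overlap, and Cyp2s1 by 1.02 ± 0.55. In the other direction Cyp4b1 (-1.25 ± 0.58), Cyp3a25 (-1.07 ± 0.71), Cyp2c65 (-1.07 ± 1.06) and Cyp2c66 (-0.88 ± 0.65) were lower, and in each of them WT DSS array 3 was the highest of the 6 arrays. Cyp4f18 (-0.74 ± 0.41), Cyp3a13 (-0.44 ± 0.78), Cyp1b1 (-0.16 ± 0.12), Cyp1a1 (0.16 ± 0.11), Cyp2c55 (0.37 ± 0.82) and Cyp2e1 (0.04 ± 0.67) overlapped. Without WT DSS array 1, 6 members passed (Cyp2c67, Cyp2c68, Cyp2d12, Cyp2d13, Cyp2f2 and, lower in TG, Cyp2j9), and without WT DSS array 3, Cyp2d26 and, lower in TG, Cyp4f18 passed. Of all genes, 5.85% (1166) and 0.823% (164) passed in these omissions. On the arrays compared, the pan-epithelial medians were -0.21, 0.04 and 0.01 in TG DSS and -0.10, -2.04 and 0.06 in WT DSS, and their part was not tested.

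The difference between the DSS changes of TG and WT mice was tested as an interaction, and no member and no gene passed (0%). At an unadjusted p under 0.05 limma called 3 members, Cyp2d11, Cyp2d12 and Cyp2f2, all with the TG change above the WT change (4.62%, against 5.85% of genes, 4.58% in this direction). For Cyp2f2 the DSS change was -0.10 in TG and -3.09 in WT, a difference of 2.99 ± 0.71 (95% interval 1.41 to 4.56; limma adjusted p 0.797). For Cyp2d12 it was 0.29 in TG and -2.02 in WT, a difference of 2.30 ± 0.66 (limma adjusted p 0.797). For Cyp2u1, Cyp4f39 and Cyp2c23 the difference between the changes was 0.14 ± 0.28, 0.07 ± 0.20 and 0.52 ± 0.31. Subfamily medians of the DSS change were -0.11 in TG and -0.07 in WT for Cyp2c, -0.13 and -0.62 for Cyp2d, -0.15 and -0.31 for Cyp4f, -0.02 and 0.04 for Cyp3a, -0.05 and -0.06 for Cyp2j, -0.13 and -0.15 for Cyp2b, and -0.10 and -0.17 for Cyp4a. Among these subfamilies the Cyp2d medians stood furthest apart, while single-member subfamilies such as that of Cyp2f2 are not in this list. The Cyp2d median read -0.17, -1.22 and -0.09 on WT DSS arrays 1, 2 and 3. On TG DSS arrays 1, 2 and 3 it read -0.38, 0.12 and -0.02, so only WT DSS array 2 lay below all TG DSS arrays. No test over members was made because neighbouring genes can share probe signal. Without WT DSS array 1, Cyp2d12, Cyp2d13 and Cyp2f2 passed the interaction test (2.94, 1.48 and 3.55, limma adjusted p 0.0102, 0.0227 and 0.0207), as did 239 of all genes (1.2%).

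**Figure D5:**
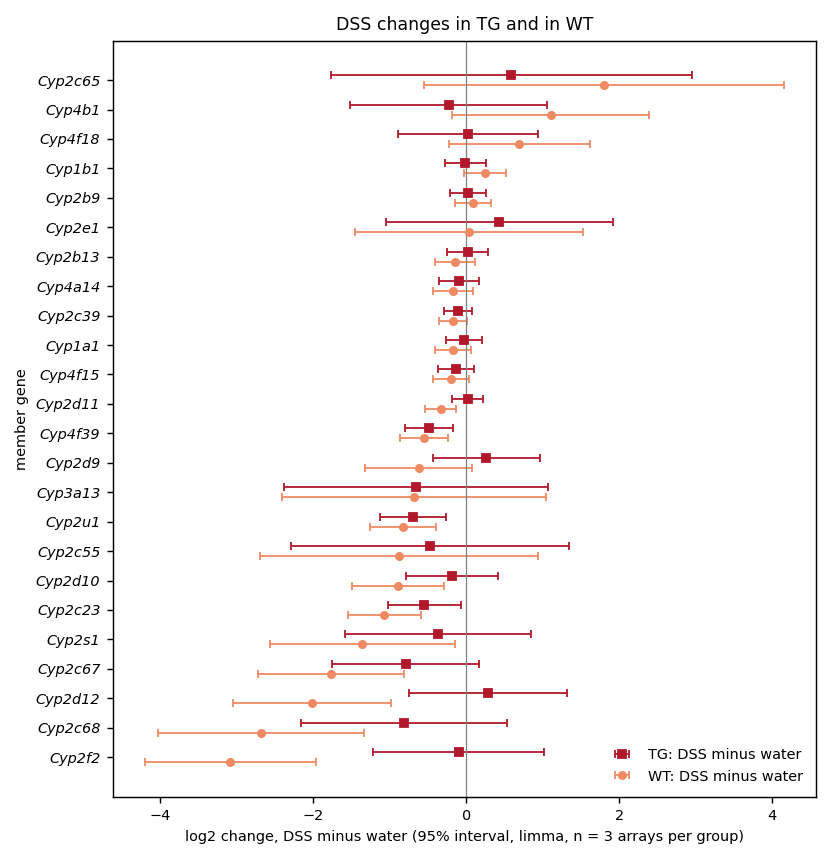
DSS minus water on the log2 scale, with limma's 95% intervals, in TG mice (squares) and WT mice (circles) for members whose groups did not overlap in WT and for 8 further members given throughout. The WT interval of Cyp2f2 runs from -4.20 to -1.97 and its TG interval from -1.21 to 1.01, while the 2 intervals of Cyp2u1 overlap.

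The regulators and partners of the P450 genes were read from 7 further gene lists, and 0 of their genes passed in any of the 5 comparisons. The 13 xenobiotic and lipid sensing receptors had a median difference of 0.02 between DSS and water in WT, from -1.08 to 0.33. The 4 named here were all lower, unlike the list as a whole. Hnf4a, a gut and liver factor, read -0.41, -2.41 and -0.25 on WT DSS arrays 1, 2 and 3, against 0.12, -0.05 and 0.09 on WT water arrays (-1.08 ± 0.44). Nr1i2, the pregnane X receptor that drives Cyp3a genes, had a difference of -1.04 ± 0.59, Nr1i3, the constitutive androstane receptor, one of -0.52 ± 0.18, and the vitamin D receptor Vdr one of -1.06 ± 0.46. Array 2 was the lowest for all 4. It also had the pan-epithelial median of -2.04, whose part in these values was not tested. In TG mice the DSS differences of Hnf4a, Nr1i2, Nr1i3 and Vdr were -0.24, -0.18, -0.06 and -0.31.

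Of 7 genes of electron supply and haem turnover, Hmox1, the haem-degrading oxygenase, read 1.66, 3.30 and 1.11 on WT DSS arrays 1, 2 and 3, against -0.13, -0.10 and -0.11 on WT water arrays (2.14 ± 0.44, limma adjusted p 0.0766). Alas1, the first enzyme of haem synthesis, differed by 0.45 ± 0.15 in WT and 0.26 ± 0.15 in TG. Among 9 genes of the clock output that includes the PAR bZip factors, activators of several P450 genes in liver, Dbp had differences of -0.85 ± 0.37 in TG and -1.78 ± 0.37 in WT, and Nfil3, a repressor at the same sites, 0.15 ± 0.32 in TG and 1.78 ± 0.32 in WT. For Dbp and Nfil3 in WT all DSS arrays were separate from all water arrays. Sult2b1, a sterol sulfotransferase, differed by -1.36 ± 0.42 in WT, the smallest p among 11 conjugating enzymes, whose median was -0.90. The median of these enzymes was -0.41, -2.40 and 0.54 on WT DSS arrays 1, 2 and 3, so array 3 went the other way. The 4 epoxide hydrolases, which open the epoxides that Cyp2c and Cyp2j enzymes make, had a median of -0.35 in WT, and the 7 efflux transporters one of 0.03.

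The 16 measured genes of the other P450 families, which work mainly on steroids, bile acids, retinoids and vitamin D, had 0 genes past the threshold in WT mice and a median of -0.07, against -0.04 over all genes, with 1 gene lower and 1 higher without overlap. Cyp39a1, an oxysterol hydroxylase, read -0.94, -1.35 and -0.79 on WT DSS arrays 1, 2 and 3, against 0.11, -0.08 and 0.08 on WT water arrays (-1.06 ± 0.19, limma adjusted p 0.0618), and its DSS difference in TG was -0.04 ± 0.19. Cyp7b1, an oxysterol hydroxylase of immune and liver cells, read 1.74, 4.46 and 0.03, against 0.00, -0.20 and 0.00 (2.14 ± 0.86). All WT DSS arrays of Cyp39a1 were low, and Cyp7b1 was high on arrays 1 and 2. Those arrays had macrophage and monocyte medians of 1.03 and 2.26, whose part in the Cyp7b1 values was not tested.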

How the data were processed

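The deposited values are log2 signals from a mouse Affymetrix gene array, made by the authors with RMA in Affymetrix Expression Console, per the submitters' processing notes (no versions given). Every probe set had a median of 0 over the 12 arrays; the step that centred them is not given in the sources used here, and the values carry no depth or absolute level, so the number of arrays limits the precision. Of 28815 probe sets, 21780 carried 1 gene symbol in the platform annotation and were averaged to 19935 genes, and 7035 with several symbols or none were not used. No 2 arrays held identical values. Group means were fitted in limma 3.58.1 (R 4.3.3) in 1 model over all 12 arrays with 8 residual degrees of freedom, with two-sided p-values adjusted by Benjamini-Hochberg over all genes and called at an adjusted p under 0.05. The fit was tested on simulated data. Promoter windows came from RefSeq's GRCm38.p6 table, aligned with Biopython 1.88, and values were summarised with Python 3.11.15.

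The members, gene lists and tests were chosen with earlier results of these data known. Values were given in full, in each comparison, for members past the threshold and for the 8 highest and 8 lowest without overlap, and throughout for Cyp1a1, Cyp1b1, Cyp2c55, Cyp2c65, Cyp2e1, Cyp2s1, Cyp3a13, Cyp4b1 and Cyp4f18. From other lists, up to 4 genes with the smallest p in DSS against water in WT could be named. The alternatives were other probe set rules, array centring, array and group weights, other eBayes options and thresholds, the 2 compared groups alone, the replicate block and leaving arrays out.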

Additional observations from a re-analysis of the deposited data

Results flagged for a closer look

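Cyp2c37, a Cyp2c gene of the chromosome 19 cluster, had DSS changes of opposite sign in the 2 genotypes: every TG DSS array lay below the TG water mean and every WT DSS array lay above the WT water mean. The change was -0.22 in TG and 0.17 in WT, a difference of -0.39 ± 0.18 (SE) on the log2 scale, with an adjusted p of 0.852 in limma's interaction test. It was the 1 member of 65 with this pattern (1.54%), against 1195 of 19935 genes (5.99%).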

How the results depend on the processing

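Over 24 alternatives, the named members gave 1623 values, of which 1600 stayed on their side of the threshold and 23 newly passed. No member passed at the outset, so no call could be lost, and 60 values that never passed changed sign. For DSS against water in WT, the 0 members past the threshold became 1 (Cyp2f2, limma adjusted p 0.0448) with every probe set on its own (0.482% of all probe sets passed), 5 with a weight for each array (3.78% of all genes), and 1 without WT DSS array 2 and TG DSS array 1 together (1.32% of all genes), where the members' median was -0.045. Leaving out 1 array gave 0 to 7 members and medians of -0.198 to -0.045. For TG against WT on water, array weights gave 6 members (9.89% of all genes), and leaving out 1 array gave 0 with medians of -0.003 to 0.056. For DSS against water in TG, array weights gave a median of -0.019, and leaving out 1 array gave 0 members and medians of -0.124 to -0.035. For TG against WT under DSS, array weights and the double omission gave 1 member each, Cyp2f2 (1.37% and 1.06% of all genes), and leaving out 1 array gave 0 to 6 members and medians of 0.02 to 0.125. For the interaction these were 0 to 3 members and -0.017 to 0.106. The causes were not tested. With the replicate block 0 members passed in any comparison and the median in WT stayed at -0.155; Cyp2f2 had a limma adjusted p of 0.141, and all genes called in DSS against water in WT numbered 0 with the block and 34 without. Of 18 pairs of arrays with the same number, 1 correlated over 0.1 (range -0.484 to 0.377), so the numbers were not taken as a pairing. Where an omission left 2 arrays in a group, the other groups' spread was pooled with theirs. The filter on low values was not run because the centred values hold no level.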
